A study of Mus musculus with 9 samples.

Results

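The enzymes and the chaperone that modify and crosslink collagen were followed across activated hepatic stellate cells (aHSCs), the scar-forming cells of the liver, sorted by WT1(GFP) expression. The set held 10 genes. The lysyl oxidase family was represented by Lox, Loxl1, Loxl2 and Loxl3, the lysyl hydroxylases by Plod1, Plod2 and Plod3, the prolyl 4-hydroxylase alpha subunits by P4ha1 and P4ha2, and the collagen chaperone HSP47 by Serpinh1. Every probe whose gene symbol was one of these names was taken, giving 18 probes. The array carried 30869 gene symbols in all, of which 14659 had a probe that passed the detection filter.

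All cells came from WT1GFP/+ mice on C57/Bl6, labelled male, in which GFP at the WT1 locus reports its expression, so that 1 WT1 allele is replaced in every group. WT1-high (labelled GFP high) and WT1-intermediate (labelled GFP low) aHSCs were sorted from livers injured with carbon tetrachloride for 8 weeks, in mice aged 8 to 12 weeks at the start. WT1-negative aHSCs (labelled GFP negative) came from quiescent HSCs cultured on plastic for 7 days, and no WT1-negative cells from injured liver were among the arrays analysed here. Each group had 3 arrays. WT1 status and origin, liver or culture dish, therefore cannot be told apart in any comparison with WT1-negative cells, and fewer cells of a type cannot be told apart from less RNA per cell.

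Newly made collagen chains are hydroxylated in the endoplasmic reticulum. Prolyl 4-hydroxylases make the hydroxyproline that keeps the triple helix stable, and lysyl hydroxylases make the hydroxylysine used in glycosylation and in mature crosslinks. HSP47 binds the folded helix in the endoplasmic reticulum. Outside the cell, lysyl oxidases convert lysine and hydroxylysine side chains to aldehydes that crosslink collagen and elastin fibres, the step known for making liver scar stiff and slow to resolve.

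The sequences just upstream of the annotated gene start are shown for the called members with a RefSeq promoter entry (GRCm38.p6), because Plod1, P4ha1 and P4ha2 are lower, and Serpinh1 higher, in the liver-derived cells on their brightest probes. The other P4ha1 probe was higher in those cells. P4ha1 and P4ha2 are classical targets of hypoxia-inducible factor, so its core letters ACGTG and GCGTG were searched on both strands and are in capitals.
Plod1 chr4:147936777-147937026 (- strand): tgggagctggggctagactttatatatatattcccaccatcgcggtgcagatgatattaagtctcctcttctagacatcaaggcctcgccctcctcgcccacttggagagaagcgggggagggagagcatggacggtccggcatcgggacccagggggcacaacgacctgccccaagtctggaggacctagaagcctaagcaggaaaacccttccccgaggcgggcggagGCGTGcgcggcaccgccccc
P4ha1 chr10:59323046-59323196 (+ strand): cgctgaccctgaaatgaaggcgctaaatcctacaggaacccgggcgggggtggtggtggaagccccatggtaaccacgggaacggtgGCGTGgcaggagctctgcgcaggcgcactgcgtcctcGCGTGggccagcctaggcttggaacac
P4ha2 chr11:54100674-54100923 (+ strand): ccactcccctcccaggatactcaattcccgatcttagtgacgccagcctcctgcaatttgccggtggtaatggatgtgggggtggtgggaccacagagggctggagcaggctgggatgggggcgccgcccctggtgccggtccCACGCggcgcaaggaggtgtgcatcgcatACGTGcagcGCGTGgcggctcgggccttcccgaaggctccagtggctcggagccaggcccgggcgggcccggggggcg
Serpinh1 chr7:99353240-99353489 (- strand): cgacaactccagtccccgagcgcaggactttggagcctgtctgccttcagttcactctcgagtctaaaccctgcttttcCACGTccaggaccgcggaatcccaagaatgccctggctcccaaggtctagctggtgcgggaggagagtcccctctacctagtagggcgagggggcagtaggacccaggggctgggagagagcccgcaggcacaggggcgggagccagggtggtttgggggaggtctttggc
P4ha2 held 1 ACGTG and 2 GCGTG matches, P4ha1 held 2 GCGTG matches in its 151 bases, Plod1 held 1 GCGTG match and Serpinh1 held 1 ACGTG match. In the first 250 bases of all 32851 promoter windows, 16.6% held ACGTG and 28.2% held GCGTG, and in the first 151 bases 9.28% and 16.6% did. Plod3, which also has an entry but was not called on its brightest probe, held 1 ACGTG and 3 GCGTG matches. The matches describe letters only.

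Levels are log2 intensities after background correction and quantile normalisation, so that a difference of 1 is a doubling. A probe was tested if it was detected above the negative controls (detection p under 0.05) on at least 3 of 9 arrays, and 20573 probes were. Of the 18 member probes, 14 were tested, covering 8 genes. Loxl2, which crosslinks basement membrane and fibrillar collagen, was detected on 0 of 9 arrays, and Loxl3 on 1, a WT1-high array. A further Plod2 probe and a further P4ha2 probe were also detected on 0 arrays. Where a member had several tested probes, the brightest stands for it and the others are given beside it. Genes of the other lists are given by their brightest tested probe only. Some of those had further tested probes, among them Pcolce2, Egln3, Vegfa, Car9 and Col3a1. Beyond the choice of the brightest and the sums of markers, levels of different probes were not set against each other.

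The groups differed in markers of other cell types, whose part in the member results was not tested. Their sums are of normalised intensities on the linear scale, not log2, so the brightest genes weigh most, such as Dcn among the stellate markers. The summed level of 15 macrophage markers ran from 5270 to 8740 in WT1-high, 17600 to 30300 in WT1-intermediate and 57200 to 62700 in WT1-negative arrays. The members of that list were not uniform: all 15 had lower values on WT1-high than WT1-intermediate arrays, 12 of them by test, but Clec4f (2.67), Marco (2.37) and Ctss (3.02) were higher in WT1-intermediate than WT1-negative arrays, where 6 were lower and Clec4f was detected on no WT1-negative array. The 12 mesothelial markers summed to 37000 to 41700, 21500 to 29800 and 245 to 341, with Gpm6a, Dmkn, Lrrn4, Krt19 and Muc16 on no WT1-negative array. Of 12 stellate markers 10 were tested, summing to 12300 to 12500, 13000 to 16900 and 2850 to 4090, with Hand2 and Colec11 on no WT1-negative array and Ngfr on no WT1-intermediate array. In WT1-high against WT1-negative arrays 5 stellate markers were higher and 3 lower (Pdgfrb -1.14, Hgf -1.21, Ngfr -0.49), and in WT1-intermediate arrays 5 were higher and 2 lower (Des -1.34, Ngfr -0.69). Skeletal muscle markers, 10 of 11 tested, summed to 7280 to 10900 in WT1-negative arrays and to at most 186 elsewhere. For WT1-high, WT1-intermediate and WT1-negative arrays in turn, hepatocyte markers summed to 401 to 2390, 518 to 1810 and 35.1 to 138, portal fibroblast markers to 5120 to 5230, 8280 to 12900 and 1930 to 5340, endothelial markers to 371 to 506, 776 to 869 and 1150 to 1600, and smooth muscle and activation markers to 5610 to 10700, 3090 to 6930 and 9280 to 10700. All 6 tested hepatocyte markers were higher by test on WT1-high than on WT1-negative arrays, 3 of them being detected on no WT1-negative array. The portal fibroblast, endothelial, and smooth muscle and activation lists held members that went opposite ways by test. On WT1-high against WT1-negative arrays, Acta2 (-1.78) and Tagln (-1.81) were lower and Timp1 (1.43) higher. Tek (0.60) was higher where 6 endothelial markers were lower, and Thy1 (-0.89) lower where 6 portal fibroblast markers were higher. The level of Wt1 itself was not analysed here.

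Among the lysyl oxidases, Loxl1, which is needed to crosslink elastin, was far higher in both liver-derived populations. Its level was 12.31, 12.84 and 12.30 on the WT1-high arrays, 11.80, 12.40 and 12.30 on the WT1-intermediate arrays, and 9.69, 10.38 and 10.32 on the WT1-negative arrays. No liver-derived array overlapped a WT1-negative one. The difference was 2.36 ± 0.24 (SE, n = 3 per group), 5.12-fold, for WT1-high (limma adjusted p = 7.82e-06) and 2.03 ± 0.24, 4.09-fold, for WT1-intermediate (limma adjusted p = 2.91e-05). A second Loxl1 probe was detected on every liver-derived array and on 0 WT1-negative arrays, so it gives only a bound, at least 1.95-fold for the WT1-high group. The corresponding bound for the WT1-intermediate group was at least 1.98-fold.

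Lox, the founding member of the family, did not follow Loxl1. Its level was 9.69, 9.91 and 9.83 in WT1-high, 9.22, 9.73 and 10.19 in WT1-intermediate, and 10.25, 10.15 and 10.23 in WT1-negative cells. The WT1-high arrays lay below the WT1-negative ones, while the WT1-intermediate arrays spread over nearly the whole range. Neither difference from WT1-negative cells passed the test, at -0.40 (95% CI -0.87 to 0.07, limma adjusted p = 0.126) and -0.49 (95% CI -0.96 to -0.03, limma adjusted p = 0.066). Without WT1-intermediate replicate 30, the second became -0.73 with a limma adjusted p of 0.00731, and without WT1-intermediate replicate 1 the first had 0.0494. The first was also called when the fit held only its own 6 arrays (limma adjusted p = 0.0275), and the second with arrays scaled to the median of the tested probes (-0.81, limma adjusted p = 0.00591).

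**Figure D1:**
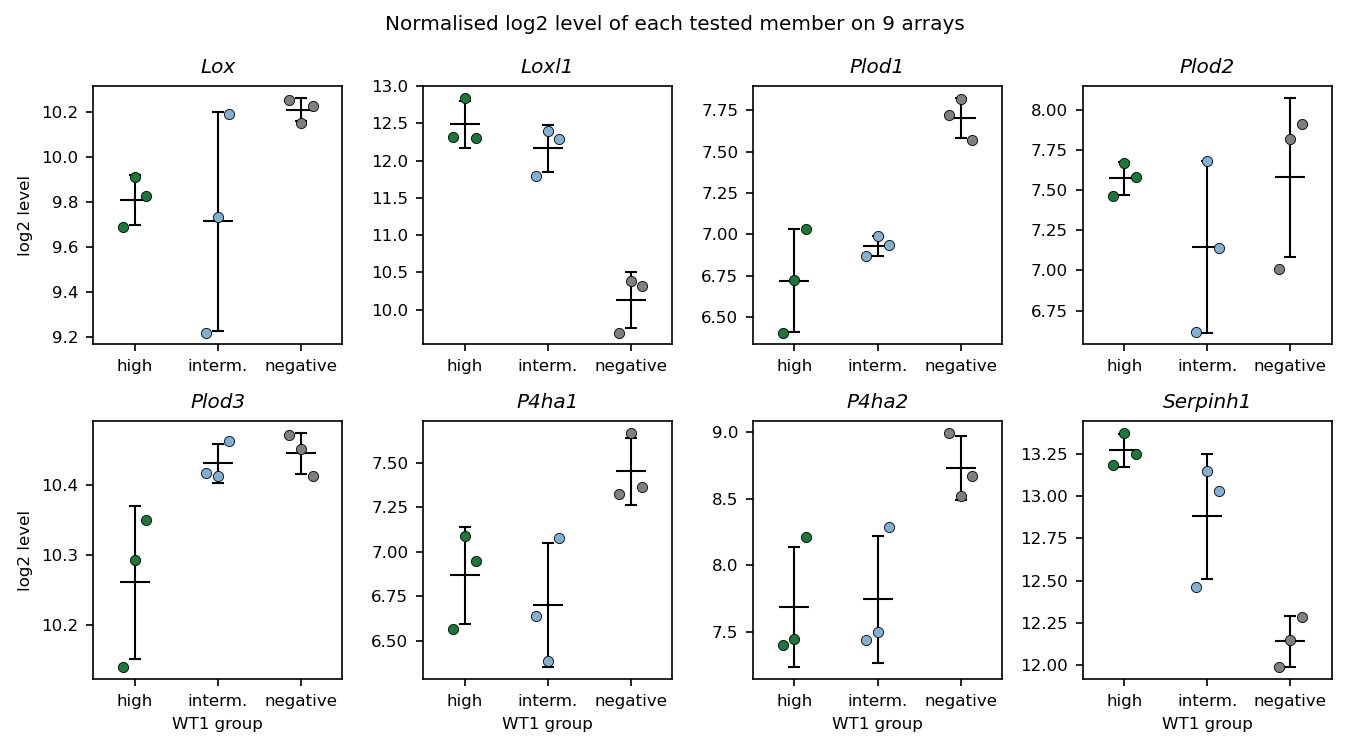
Log2 level (vertical axes, each with its own range) on the brightest probe of the 8 tested members, by WT1 group; points are arrays, and bars are the mean ± SD of 3. Loxl1 and Serpinh1 are lowest in the WT1-negative group, whereas Plod1, P4ha2 and, on this probe only, P4ha1 are highest there.

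Of the lysyl hydroxylases, only Plod1, which acts on helical lysines, differed on its brightest probe. Its level was 6.41, 6.72 and 7.03 in WT1-high, 6.87, 6.99 and 6.93 in WT1-intermediate, and 7.72, 7.82 and 7.57 in WT1-negative cells. Every WT1-negative array was above every liver-derived array. Plod1 was 1.98-fold lower in WT1-high (-0.98 ± 0.17, SE) and 1.71-fold lower in WT1-intermediate cells (-0.77 ± 0.17), with limma adjusted p of 0.000476 and 0.00255.

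Plod2, the telopeptide lysyl hydroxylase that feeds the hardest-to-reverse crosslinks of scar, was 7.46, 7.67 and 7.58 in WT1-high, 6.62, 7.68 and 7.14 in WT1-intermediate, and 7.01, 7.82 and 7.91 in WT1-negative cells. The 3 groups overlapped and their order cannot be set from these arrays. The difference between WT1-high and WT1-negative cells was -0.01 (95% CI -0.63 to 0.62), and on the second Plod2 probe 0.51 (95% CI -0.08 to 1.10). Against WT1-negative cells, WT1-intermediate cells stood at -0.43 (limma adjusted p = 0.209), which passed the test, at -0.71 with 0.0448, without WT1-negative replicate 3.

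Plod3, which also has glycosyltransferase activity, had 10.14, 10.29 and 10.35 in WT1-high, 10.42, 10.41 and 10.46 in WT1-intermediate, and 10.47, 10.45 and 10.41 in WT1-negative cells on its brightest probe. WT1-high was the lowest group, by less than the test could call against WT1-negative cells (-0.19, limma adjusted p = 0.242). That difference was called without background correction (-0.17, limma adjusted p = 0.0343). A dimmer Plod3 probe was lower by test in both liver-derived groups, at -0.51 (limma adjusted p = 0.022) and -0.70 (limma adjusted p = 0.0042), and the mean of the Plod3 probes was called in both (-0.35 and -0.36, limma adjusted p = 0.0425 and 0.039).

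The prolyl 4-hydroxylase subunit P4ha2 was lower in both liver-derived populations. Its level was 7.41, 7.45 and 8.21 in WT1-high, 7.44, 7.51 and 8.29 in WT1-intermediate, and 8.99, 8.52 and 8.67 in WT1-negative cells. The highest array of each liver-derived group came close to the WT1-negative arrays without reaching them. P4ha2 was 2.06-fold lower in WT1-high (-1.04 ± 0.27, SE; limma adjusted p = 0.00638) and 1.98-fold lower in WT1-intermediate cells (-0.98 ± 0.27; limma adjusted p = 0.00898). Its second tested probe was also lower, at -0.76 and -0.66.

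The 2 probes of P4ha1, the widely expressed alpha subunit, moved in opposite directions, so the gene has no single direction here. The brightest gave 6.56, 7.09 and 6.95 in WT1-high, 6.64, 6.39 and 7.07 in WT1-intermediate, and 7.33, 7.67 and 7.36 in WT1-negative cells, lower by 0.59 and 0.75 in the liver-derived groups (log2 differences -0.59 and -0.75, limma adjusted p = 0.03 and 0.009). The other gave 6.72, 7.50 and 7.23, then 7.00, 7.66 and 7.72, then 6.43, 6.03 and 6.32, higher in the liver-derived groups by 0.89 and 1.20 (limma adjusted p = 0.00824 and 0.0014). Both probes were detected on all 9 arrays. The array annotation ties the other probe to a RefSeq transcript on chromosome 10, where P4ha1 lies. For the brightest it gives a different sequence record and no chromosome. The brightest was chosen on a mean level over all arrays of 7.01 against 6.95. Which probe better reports the gene was not tested. The WT1-high call on the brightest probe was lost without WT1-high replicate 1 (-0.43, limma adjusted p = 0.118), WT1-negative replicate 11 (-0.47, 0.107) or WT1-negative replicate 14 (-0.63, 0.0529).

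Serpinh1, whose product HSP47 is the collagen-specific chaperone, was higher in both liver-derived populations. Its level was 13.19, 13.38 and 13.25 in WT1-high, 12.46, 13.15 and 13.03 in WT1-intermediate, and 11.98, 12.15 and 12.28 in WT1-negative cells. The arrays fell in the order WT1-high, WT1-intermediate, WT1-negative with no overlap. Serpinh1 was 2.20-fold higher in WT1-high (1.13 ± 0.19, SE; limma adjusted p = 0.000341) and 1.67-fold higher in WT1-intermediate cells (0.74 ± 0.19; limma adjusted p = 0.00571), and the WT1-intermediate call was lost when arrays were scaled to the same median (0.38, limma adjusted p = 0.166). The second Serpinh1 probe gave larger differences, 2.40 and 2.12.

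**Figure D2:**
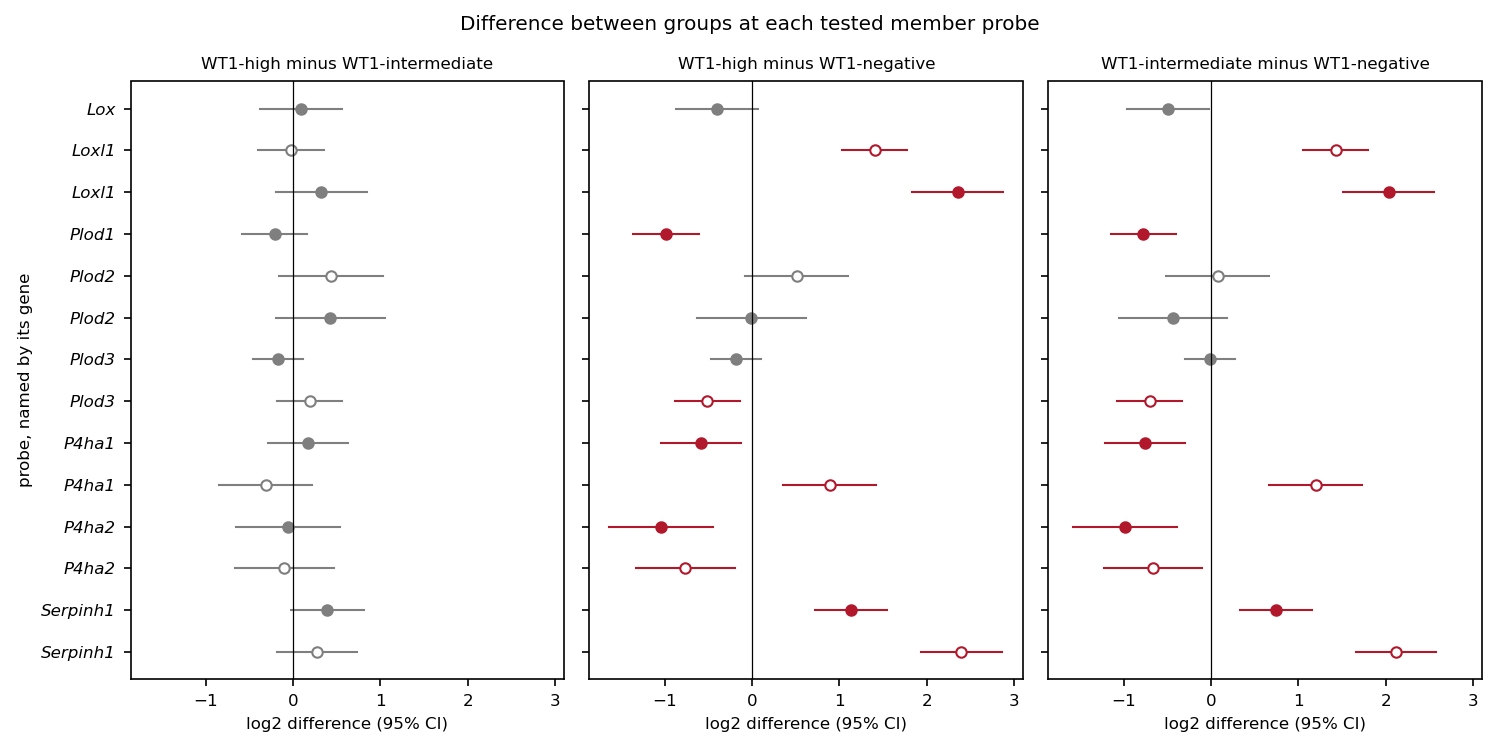
Log2 difference (horizontal axes, shared range) with its 95% confidence interval for each of the 14 tested member probes in the 3 comparisons; filled circles are brightest probes, open circles the others, and red marks an adjusted p under 0.05. No probe is red between WT1-high and WT1-intermediate cells, and the 2 P4ha1 probes lie on opposite sides of 0 in both comparisons with WT1-negative cells.

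Between the 2 liver-derived populations, no member passed the test. Of the 8 tested members, 0 were called and 0 had an unadjusted p under 0.05, against 3.55% of all tested probes called (0.904% higher and 2.64% lower in WT1-high cells). Serpinh1 was the nearest, at 0.39 higher in WT1-high cells (95% CI -0.02 to 0.81, limma adjusted p = 0.319), with groups that did not overlap. Plod2 stood at 0.43 (95% CI -0.20 to 1.05) and Loxl1 at 0.32 (95% CI -0.20 to 0.84). Plod3 stood at -0.17 (95% CI -0.46 to 0.12), also without overlap. The share of all tested probes without overlap was not counted, so lack of overlap only describes the arrays of a gene, in every comparison. Lox differed by 0.09 (95% CI -0.37 to 0.56), Plod1 by -0.21, P4ha1 by 0.17 and P4ha2 by -0.06. On the less bright probes the differences were -0.02 for Loxl1, 0.43 for Plod2, 0.19 for Plod3, -0.31 for P4ha1, -0.10 for P4ha2 and 0.28 for Serpinh1, so Loxl1, Plod3 and P4ha1 changed sign and the Serpinh1 groups overlapped. These intervals leave room for differences of up to about 1 log2 unit for Plod2. Treating the animal as a replicate block raised the calls among all probes to 8.73% and still called 0 members.

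The comparisons of WT1-high and of WT1-intermediate cells with WT1-negative cells share the WT1-negative arrays. In WT1-high cells 2 of 8 members were called higher and 3 lower, where 59.6% of all tested probes were called, 26.5% higher and 33.1% lower. In WT1-intermediate cells the counts were again 2 and 3, where 58% of all tested probes were called, 24.4% higher and 33.6% lower. The 3 lower include P4ha1 on its brightest probe, and with its other probe the counts were 3 higher and 2 lower in both comparisons. The share of members called was thus close to that of all probes. On brightest probes the median member difference was -0.29 and -0.46, against -0.10 and -0.13 over all tested probes. With the other P4ha1 probe the member medians were -0.095 and -0.22.

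The other genes of the collagen pathway, 22 of 29 tested, had more calls upward. In WT1-high against WT1-negative cells 12 were higher, 5 lower and 5 not called (all tested probes: 26.5% higher and 33.1% lower). Their median difference was 0.62. The 12 included Adamts3, which was detected on 0 WT1-negative arrays, so its difference is only a bound. Sec24d, a coat protein of the vesicles that export procollagen, was higher by 2.17, Fkbp14, a collagen prolyl isomerase, by 1.77, and Pcolce, an enhancer of procollagen C-proteinase, by 1.49. Tmem38b, an endoplasmic reticulum channel, stood at -0.99, Sec23a, another coat protein, at -0.98 and Mia3, the procollagen export receptor, at -0.82. In WT1-intermediate cells 10 were higher, 5 lower and 7 not called (all tested probes: 24.4% higher and 33.6% lower), with a median of 0.23. Sec24d was at 1.85, Fkbp14 at 1.47, Sec23a at -1.42, Mia3 at -0.96 and Kdelr2, a retrieval receptor, at -0.70.

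Pcolce2, a relative of Pcolce, was the only pathway gene called between the liver-derived populations. The WT1-high level was 10.9-fold below the WT1-intermediate level (-3.45 ± 0.38, SE; limma adjusted p = 0.00084) and the latter stood 17.2-fold above the level of WT1-negative cells, where 2 of 3 arrays detected Pcolce2. Portal fibroblast markers also differed between the liver-derived groups, 7 of 9 having lower values in WT1-high cells, 2 of them by test (Pi16 -3.27, Dpt -1.96); their part in the Pcolce2 result was not tested.

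The substrates of these enzymes divided. Of 8 tested, 5 were higher and 1 lower in WT1-high than in WT1-negative cells, and 4 were higher and 2 lower in WT1-intermediate cells. Of all tested probes, 26.5% were called higher and 33.1% lower in the former comparison, and 24.4% and 33.6% in the latter. Elastin (Eln), the main substrate of Loxl1, was higher by 4.90 and 4.56, Col3a1 by 4.55 and 4.36, and Col1a2 by 2.69 and 2.39. Col1a1, the partner chain of Col1a2 in type I collagen, ran the other way, at -1.40 and -1.26. Col4a2, a basement membrane chain, was lower in WT1-intermediate cells (-0.66), with groups that overlapped; the call was lost on leaving out WT1-intermediate replicate 1, its replicate 30 or the WT1-negative array 11 (limma adjusted p from 0.0683 to 0.115). Between WT1-high and WT1-intermediate cells 0 of 8 were called, and 0 had an unadjusted p under 0.05.

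Hypoxia response genes, listed because P4ha1, P4ha2, Plod2 and Lox are known targets of that response, went both ways. Against WT1-negative cells, 26.5% of all tested probes were called higher and 33.1% lower for WT1-high, and 24.4% and 33.6% for WT1-intermediate cells. Of 13 hypoxia genes tested, 4 were higher and 3 lower in WT1-high than in WT1-negative cells, and 5 were higher and 4 lower in WT1-intermediate cells. The 4 included Higd1a, which was detected on 0 WT1-negative arrays, so its difference is only a bound. Ndrg1 was higher by 3.94 and 3.61, the oxygen-sensing prolyl hydroxylase Egln3 by 3.72 and 2.54, and the carbonic anhydrase Car9 by 2.28 and 1.86. Pdk1 stood at -2.47 and -2.41, Ankrd37 at -2.41 and -1.81, and Hif1a at -0.69 and -0.85. Between the liver-derived groups, Egln3 was higher (1.17) and the growth factor gene Vegfa lower (-1.08) in WT1-high cells. The Egln3 call was lost without any 1 of the WT1-high arrays or without WT1-intermediate replicate 1 or 8 (limma adjusted p from 0.0629 to 0.143), and the Vegfa call without WT1-intermediate replicate 1 (0.0569). Hif1a lost its call for WT1-high cells without WT1-high replicate 1 or 8 or WT1-negative replicate 3 or 14 (limma adjusted p from 0.0655 to 0.135), and for WT1-intermediate cells when either WT1-intermediate replicate 8 (0.0527) or the WT1-negative array 14 (0.0635) was left out.

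**Figure D3:**
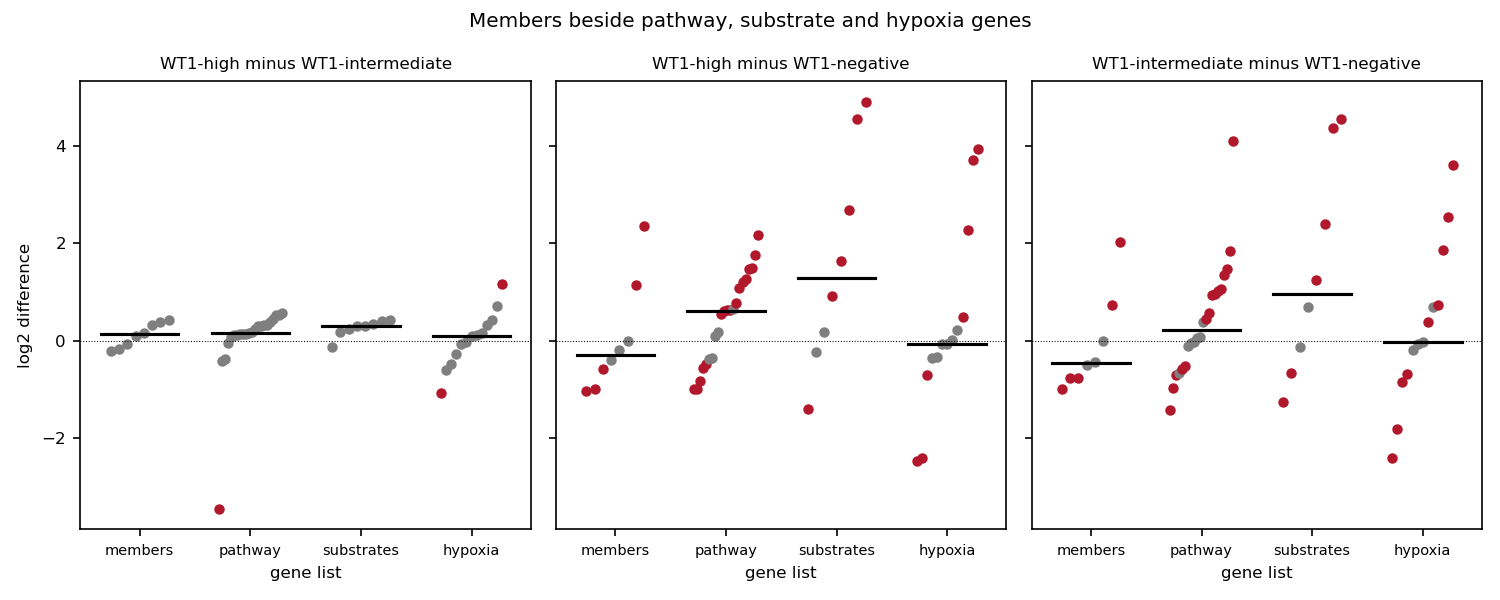
Log2 difference (vertical axis) of each tested gene in the members, the other pathway genes, the substrates and the hypoxia response genes, in the 3 comparisons; points are genes in order of size, red those called, and black lines the medians. The substrates have the highest median in both comparisons with WT1-negative cells, 1.29 and 0.97, while the members' medians on brightest probes are -0.29 and -0.46; the first turns to 0.056 when the probe with the smallest p is taken for each gene.

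Likeness of pattern was measured as the root mean square difference of log2 levels over the 9 arrays, each gene centred on its own mean. The genes most like Lox were Mfge8 (0.0917), Rpl21 (0.107) and S100pbp (0.107), though Rpl21 has many near-identical copies. Those most like Plod2 were Copz2 (0.182), Ssh3 (0.192) and Lrrc8 (0.194), and those most like Serpinh1 were Ryk (0.0937), Efemp2 (0.0983) and Mgst1 (0.107). The SD over the 9 arrays was 0.339 for Lox, 0.426 for Plod2 and 0.54 for Serpinh1. These matches are the smallest of 20572 probes compared for Lox and 20571 for Plod2 and Serpinh1, so they only describe the arrays. Among the members, on brightest probes, Loxl1 and P4ha2 were farthest apart (1.59).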

How the data were processed

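Gene expression was measured on 9 Illumina MouseWG-6 v2.0 arrays, 3 per WT1 group. The authors deposited probe intensity from the scanner's summary software, not normalised, with a detection p-value per probe; the genome build is not given in the sources used here. Intensities of 45281 gene probes were background-corrected with 936 negative control probes, quantile-normalised with an offset of 16 and put on the log2 scale (limma 3.58.1, R 4.3.3). Where detection (p under 0.05) held on 3 or more arrays, the probe was tested with limma's moderated linear model over all 9 arrays (two-sided, 6 residual and 5.19 prior degrees of freedom), with Benjamini-Hochberg adjustment over 20573 probes and calls at an adjusted p under 0.05. The test was checked on simulated arrays without pairing by animal and with an added shift larger than most member differences. That check does not bear on smaller differences or on paired arrays. The precision is limited by the number of arrays, whose mean signal ran from 147 to 289.

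The members and gene lists were chosen with earlier results of these data known, so no list stands as independent support. Every member was named, with up to 3 called rises and 3 called falls per other list and comparison. The methods state that WT1-high and WT1-intermediate cells came from 3 animals. Deviations of same-numbered arrays correlated at 0.352 and 0.338, and of WT1-high 29 with WT1-intermediate 30 at 0.468, so these were paired in the replicate block. One column numbered 29 was assigned to WT1-intermediate 30 as that group's remaining array. P-values weigh a difference against the spread between arrays of the same group, pooled over all 9 arrays. The main fit did not take the pairing into account. Alternatives covered the background correction, normalisation, offset, filter, probe choice, samples in the fit, replicate block and each array left out; scaling to the median of the tested probes was added after the median scaling over all gene probes had been seen.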

Additional observations from a re-analysis of the deposited data

How the results depend on the processing

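Loxl1, Serpinh1, Plod1 and P4ha2 kept their direction against WT1-negative cells under every alternative run. Scaling arrays to the median of all gene probes, as planned, moved the median difference of all tested probes from 0.05 to 0.45 for WT1-high minus WT1-intermediate and from -0.13 to -0.44 for WT1-intermediate minus WT1-negative. Scaling to the median of the tested probes, added after that shift was seen, gave -0.04 and -0.01. Both scalings shift each array by a constant, so differences relative to the all-probe median are the same under both by construction. In the latter comparison these were 0.82 for Serpinh1 and 1.91 for Loxl1, which is no check of either gene. Under the planned scaling the median member difference was 0.73 and -1.16, and Plod1 (0.40), Plod3 (0.51) and P4ha2 (0.62) turned positive in the former, as did Plod3 (0.018) and P4ha2 (0.13) under the added one. It lost the call of Serpinh1 (0.38) and gained Lox (-1.24), Plod2 (-1.08) and Plod3 (-0.71) in the latter, and P4ha1 in WT1-high minus WT1-negative lost its call (limma adjusted p = 0.0713).

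Taking the probe with the smallest p moved the median member difference of WT1-high minus WT1-negative to 0.056 and reversed P4ha1 (-0.31, 0.89 and 1.20 in the 3 comparisons) and Plod2 (0.51). Averaging a gene's probes gave P4ha1 -0.072, 0.15 and 0.22, Plod3 0.010 for WT1-high minus WT1-intermediate, and Plod2 0.25 for WT1-high minus WT1-negative, where cyclic loess gave 0.054. With each array left out, uncalled differences ran across 0 for Lox (-0.15 to 0.33) and P4ha2 (-0.32 to 0.22) between the liver-derived groups and for Plod2 (-0.29 to 0.16) in WT1-high minus WT1-negative. Member calls were then 0 between the liver-derived groups, and 4 to 6 and 5 to 6 against WT1-negative cells. The replicate block changed 0 member calls; fixed on 6 arrays, or on the 4 with matching numbers, it called 7.39% and 8.98% of all probes for WT1-high minus WT1-intermediate (median member difference 0.13 and 0.32). Calls of Egln3, Vegfa, Hif1a, Col1a1 and Col4a2 were each lost under at least 1 alternative. The cause was not tested. Loxl2 and Loxl3 are limited by signal at background.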
